A study of Rattus norvegicus with 8 samples.

Results

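Acute phase proteins are plasma proteins whose synthesis shifts during inflammation, and 7 of their genes were followed here in rat kidney: Serpina3n, A2m, Lbp, Orm1, Hp, Hpx and Cp. They were chosen by the change of their array signal between treated and control kidneys, and their probes were found through the transcript accessions in the deposited files. These 7 genes stood beside 21416 genes or unnamed transcripts tested in all, and they were covered by 9 of the 30367 probes on the array. Because this contrast chose them, their levels and differences are given as a description, with no test.

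In the classical acute phase response, interleukin-6 and related cytokines signal through the receptor chain gp130, encoded by Il6st, and activate the transcription factor STAT3, while interleukin-1 acts through NF-kB and C/EBP factors. The liver is the main source of the plasma proteins, and injured tubular epithelium can also make several of them. Their products inhibit proteases, sense bacterial lipopolysaccharide, bind free haemoglobin and haem, or oxidise iron.

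Total RNA came from kidneys of 10-week-old male rats of the SD strain. The 4 control samples had received 0.5% methylcellulose, a vehicle, for 4 weeks, and the 4 treated samples had received APL at 150 mg/kg for 4 weeks. APL is taken to be allopurinol, a blocker of xanthine oxidase, since the series title gives that drug as the agent of its fibrosis model. That title mentions renal tubules, the tissue label says kidney, and whether each sample was a separate animal is not stated, so p-values measure only the spread between these samples. Each sample was hybridised to 1 single-colour array, and arrays are named below by group and replicate number.

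A level is given as the relative signal, which is the processed signal divided by the array's own 75th percentile, and values under a floor of 0.005 were raised to it before log2 was taken. In the controls that percentile was 291 ± 18.0, against 455 ± 53.0 in APL (SD, n = 4 each; exact two-sided permutation p = 0.0286, the smallest that 4 against 4 allows). The share of probes well above background was 75.01% ± 1.53 in the controls and 80.7% ± 0.845 in APL (SD, n = 4 each; exact permutation p = 0.0286). Across genes, arrays correlated at 0.897 to 0.937 within the controls, at 0.919 to 0.961 within APL and at 0.802 to 0.858 between the groups. Slide 1 held replicates 1 and 2 of both groups and slide 2 held replicates 3 and 4. In limma's test with Benjamini-Hochberg adjustment, 2554 genes were called higher in APL (11.9% of 21416 tested) and 2472 were called lower (11.5%). A gene is called at an adjusted p under 0.05. The median log2 difference over all genes was -0.03.

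The kidney label was set against nephron markers. Of 14 proximal tubule markers, 13 were well above background on all 4 control arrays. The summed relative signal of all 14 was 900.5 to 1130 in the controls and 44.9 to 58.7 in APL. Without the brightest gene, Kap, the sum was 573 to 688 and 44.0 to 54.3. In limma's fit 11 of the 14 were called lower (78.6%, beside 11.5% of all genes) and 2 higher (14.3%, beside 11.9%). The androgen-regulated kidney transcript Kap fell by 7.86 ± 0.51 on the log2 scale (limma adjusted p = 5.01e-05), and the transporter gene Slc7a13 fell by 8.58 ± 0.33 (limma adjusted p = 1.05e-05). Markers of tubular injury had summed signals of 48.5 to 85.5 in the controls and 160.2 to 247.9 in APL. Of 15 tested, 8 were called higher (53.3%, beside 11.9% of all genes), 1 lower (6.67%, beside 11.5%) and 6 were not called. Fewer cells of a type and less RNA per cell cannot be told apart in such bulk samples, and the part of these shifts in the values below was not tested.

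The promoter table of RefSeq (build GRCr8) held windows for 4 of the 7 genes, Serpina3n, Hpx, Cp and Orm1, but not for A2m, Lbp and Hp. They are printed because the motifs of STAT3 and C/EBP factors, the textbook regulators of these genes, can be seen in them at different places. Each window is 300 bases long, ends 50 bases after the start site and is written 5′ to 3′ on the strand of the gene. Capitals mark the motif matches.

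Serpina3n, chr6:129088142-129088441, plus strand: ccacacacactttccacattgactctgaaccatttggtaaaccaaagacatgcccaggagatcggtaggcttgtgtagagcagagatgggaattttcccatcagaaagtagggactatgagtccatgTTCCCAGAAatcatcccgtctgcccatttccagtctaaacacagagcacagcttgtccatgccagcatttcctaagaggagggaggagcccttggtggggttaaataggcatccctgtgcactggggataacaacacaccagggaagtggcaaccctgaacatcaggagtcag

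Hpx, chr1:169352106-169352405, minus strand: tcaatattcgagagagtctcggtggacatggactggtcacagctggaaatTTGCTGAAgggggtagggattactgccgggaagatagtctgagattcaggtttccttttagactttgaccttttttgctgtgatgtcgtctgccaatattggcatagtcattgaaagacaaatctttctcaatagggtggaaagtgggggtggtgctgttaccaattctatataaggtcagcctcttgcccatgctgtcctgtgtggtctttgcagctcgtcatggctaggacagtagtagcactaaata

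Cp, chr2:104368420-104368719, plus strand: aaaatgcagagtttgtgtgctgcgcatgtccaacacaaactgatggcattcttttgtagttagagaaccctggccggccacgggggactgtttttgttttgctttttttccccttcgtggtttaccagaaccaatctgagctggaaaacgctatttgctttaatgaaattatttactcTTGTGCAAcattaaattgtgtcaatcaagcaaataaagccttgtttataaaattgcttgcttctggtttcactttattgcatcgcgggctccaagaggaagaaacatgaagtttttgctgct

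Orm1, chr5:81788259-81788558, plus strand: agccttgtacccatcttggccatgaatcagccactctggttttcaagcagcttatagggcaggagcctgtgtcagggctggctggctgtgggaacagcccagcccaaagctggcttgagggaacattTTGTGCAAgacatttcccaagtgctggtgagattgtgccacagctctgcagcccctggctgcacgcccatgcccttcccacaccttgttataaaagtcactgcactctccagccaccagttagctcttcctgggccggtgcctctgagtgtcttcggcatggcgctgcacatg

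Both strands of the windows were searched for 5 motifs. The STAT palindrome TTCNNNGAA stood in 1 of the 4 windows, that of Serpina3n, from 123 bases before the start site, and in 8.87% of all 33469 windows. The STAT3 element CTGGGAA, read on the opposite strand, overlaps the same place in Serpina3n and was found in 11.3% of all windows. The C/EBP element TTGCNNAA stood in 3 of the 4 windows, those of Orm1 at 123, Hpx at 200 and Cp at 72 bases before the start, and in 10.6% of all windows. On the strand of the gene alone it was found in 1 of the 4. The NF-kB element GGGANTTCC (1.64% of all windows) and the AP-1 element TGACTCA (4.63%) matched none of the 4. These matches describe letters only, and the arrays measured no binding.

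**Figure D1:**
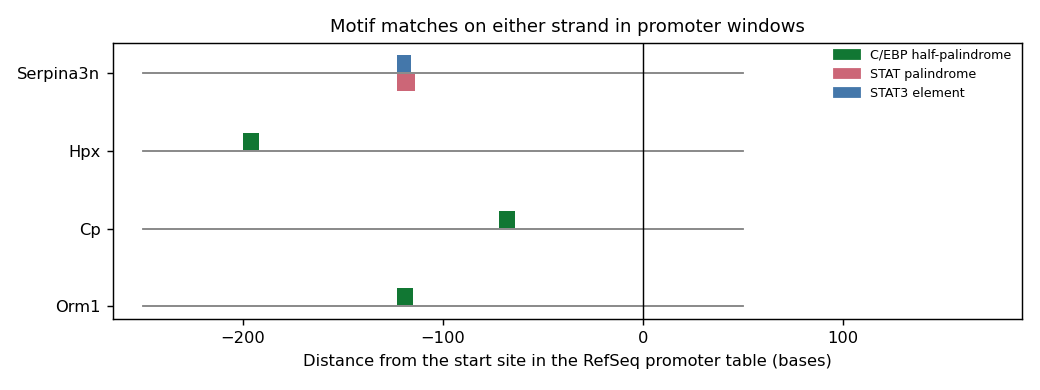
Motif matches in the promoter windows of Serpina3n, Hpx, Cp and Orm1, by distance in bases from the start site (vertical line at 0; grey lines are the windows and boxes the matches on either strand). The STAT matches lie only in the Serpina3n window among these 4, and a C/EBP match lies in each of the other three.

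Transcripts of the protease inhibitors and of the ferroxidase stood far higher in the APL kidneys. Those of the lipopolysaccharide carrier did so only with a flagged control spot left out. Those of the haem carrier stood moderately higher, by a difference that depended on how dim signals were handled. Both carriers were detected on 0 control arrays as processed, so they passed the detection filter only through the 4 APL arrays. The haemoglobin binder and the acid glycoprotein showed no separation of the groups. Of the 7 genes, 5 were at least 2-fold higher in APL with groups that did not overlap, beside 10.0% of the 21416 tested. The count is 4 if a control spot of Lbp that was left out is kept. The choice of the genes used this contrast, so nothing is read from it. In the APL group 5 of the 7 were well above background on all 4 arrays, and in the controls 3 were. Orm1 was above background on no array and did not pass the detection filter, which asks for at least 4 of the 8 arrays, so 6 of the 7 entered the fit.

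**Figure D2:**
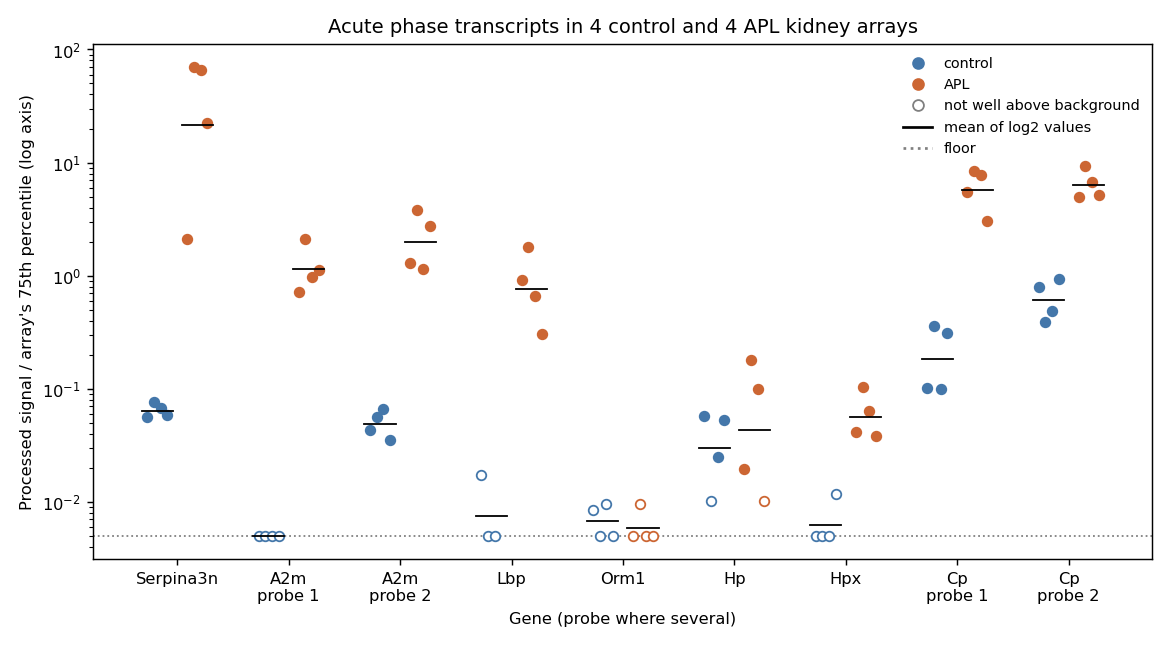
Relative signal of all 9 probes of the 7 genes on each of the 4 control and 4 APL arrays, on a log axis. Points are arrays, open points are not well above background, bars are means of log2 values and the dotted line is the floor of 0.005; the groups are apart for Serpina3n, A2m, Lbp, Hpx and Cp and overlap for Hp and Orm1, and a flagged control spot of Lbp is left out. Heights of different probes are not comparable.

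Serpina3n encodes a secreted serine protease inhibitor related to alpha-1-antichymotrypsin. Its relative signal (probe A_44_P1000653) was 0.0566, 0.0756, 0.0670 and 0.0581 on control arrays 1 to 4, and 2.11, 69.4, 65.9 and 22.3 on APL arrays 1 to 4. The controls lay close together, every APL array was above every control, and APL 1 was far below the other APL arrays. The log2 difference was 8.40 ± 1.04, a 337-fold ratio of the group means of log2 values, where ± here and below is the moderated standard error with n = 4 each unless an SD is named. The APL arrays spanned a 32.9-fold range with an SD of 2.36 on the log2 scale, the widest among the genes described here. Within slides 1 and 2 the difference was 7.53 and 9.26, and leaving out single arrays gave 7.83 to 9.51. Whether this probe also reads other genes of the Serpina3 cluster was not tested. With the model-based background correction normexp the Serpina3n difference was 5.96 after scaling to the 75th percentile and 5.29 after quantile normalisation. Normexp here started from median spot and background signals, not the processed signal, and added an offset of 50 to every spot. Such an offset shrinks ratios of dim signals whatever the gene. Smaller differences with normexp, here and below, are thus partly built in.

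A2m encodes alpha-2-macroglobulin, a broad protease trap and a classical acute phase protein of the rat. The probe with the higher signal, A_64_P038873, gave 0.0435, 0.0559, 0.0664 and 0.0350 on the control arrays and 1.29, 3.80, 1.14 and 2.74 on the APL arrays. The groups did not overlap, and the APL arrays fell into a higher pair, APL 2 and APL 4, and a lower pair. Its log2 difference was 5.34 ± 0.43, with 5.49 and 5.20 within the slides. The other probe, A_64_P038872, lay at the floor on every control array and read 0.717, 2.10, 0.982 and 1.13 in APL. It was well above background on no control array, so its ratio is given as a bound, 70.9-fold with this processing. The bound sets the APL mean against the lowest signal that counts as well above background on each control array. Where an array's own signal was higher than that, its own signal was used. The probes moved the same way, with APL 2 highest and APL 4 next on both, and they differed in the order of APL 1 and APL 3. Normexp lowered the difference of the brighter probe to 2.80, or to 2.13 with quantile normalisation.

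Lbp encodes lipopolysaccharide-binding protein, which hands bacterial lipopolysaccharide to Cd14. Control 1 read 0.0173, not well above background, controls 2 and 3 lay at the floor, and the spot of control 4 was marked as non-uniform by the scanner software and left out. APL arrays 1 to 4 read 0.913, 1.78, 0.657 and 0.308, all well above background. The remaining 3 controls were thus all undetected and every APL array was above them. The log2 difference was 6.64 ± 0.70 (n = 3 controls and 4 APL), and the bound on the ratio, set as for A2m, was 44.3-fold. This result depends on the spot left out. Kept, it read 0.738 and was well above background, the groups overlapped, 2 of the 4 APL arrays were above it, and the difference became 4.99 ± 1.55 with n = 4 each. With normexp the difference was 1.99, or 1.35 with quantile normalisation. These values, and the difference with the spot kept, are smaller ratios than that bound, so it is no minimum across settings.

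Cp encodes ceruloplasmin, the copper-carrying ferroxidase that works with the iron exporter ferroportin. It had probes to a pair of RefSeq transcripts, and A_64_P092201 (NM_001270961), the brighter, read 0.789, 0.389, 0.483 and 0.932 in the controls and 4.99, 9.35, 6.72 and 5.12 in APL. All arrays were well above background and the groups were apart, with APL 2 again the highest. The log2 difference was 3.38 ± 0.35, a 10.4-fold ratio, with 3.62 and 3.13 within the slides, and normexp gave 2.77. The second probe, A_64_P036925 (NM_012532), read 0.101, 0.360, 0.0994 and 0.314 in the controls and 5.46, 8.34, 7.72 and 3.07 in APL. Its log2 difference of 4.97 ± 0.55 had the same direction and a larger size, with the controls split into a higher pair, controls 2 and 4, and a lower pair.

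Hpx encodes hemopexin, the plasma carrier of free haem. Controls 1 to 3 lay at the floor and control 4 read 0.0118, none of them well above background, while the APL arrays read 0.0413, 0.103, 0.0631 and 0.0382. Every APL array was detected and every control was not. The log2 difference with the floor was 3.19 ± 0.42, and the bound on the ratio, set as for A2m, was 3.53-fold. The log2 difference depended on how dim signals were handled: a floor of 0.02 gave 1.501, normexp gave 0.87, and normexp with quantile normalisation gave 0.16. All of these are smaller ratios than that bound, so it is no minimum across settings.

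Hp encodes haptoglobin, which binds free haemoglobin. The controls read 0.0571, 0.0102, 0.0251 and 0.0533, and the APL arrays read 0.0196, 0.181, 0.0986 and 0.0101. The groups overlapped: APL 2 and APL 3 were above all controls, APL 4 was the lowest of all, and 1 array of each group was not well above background. The log2 difference was 0.54 ± 0.99, smaller than its error. It was 1.30 on slide 1 and -0.21 on slide 2, and leaving out single arrays gave -0.14 to 1.24.

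Orm1 encodes alpha-1-acid glycoprotein 1, a lipocalin that carries small molecules in plasma. Its processed signal, before any floor, was 0.00843, 0.00469, 0.00959 and 0.00394 of the 75th percentile on the control arrays and 0.00492, 0.00966, 0.00276 and 0.00490 on the APL arrays. None of these was well above background and the groups overlapped, so no ratio is given.

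Array APL 2 was the highest APL array for each of the 6 genes that were tested (Serpina3n, A2m, Lbp, Hp, Hpx and Cp), whereas it was the highest in 16.2% of 2548 genes called higher with a value on every APL array. The lowest APL array was APL 4 for 3 of the 6 and APL 1 for 2, and across the 2548 genes APL 1 was lowest in 36.3%. The 6 genes share these arrays, so they are not 6 independent readings of the order.

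The genes with a symbol whose log2 values lay closest to each member's, after both were centred on their control means, were named by the root mean square difference over the 8 arrays. For Serpina3n these were Fgb, the fibrinogen beta chain (1.13), and Rasd1 (1.20). For A2m, Tifa lay at 0.413, and for Cp the closest were Sbno2 (0.387) and the complement gene C4a (0.399). Lbp, over 7 arrays, lay closest to Casp12 (0.707) and S100a8 (0.721). Hpx was closest to Tgif1 (0.441) and Tmem255b (0.482), and Hp to Trim69 (0.677) and Bcl2 (0.723). The distance for Serpina3n was thus the largest of the 6, and all of these are descriptions of the same 8 arrays.

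Relatives of the 7 genes in sequence or fold did not move as 1 block. Of 24 tested, 5 were called higher (20.8%, beside 11.9% of all genes), 3 lower (12.5%, beside 11.5%) and 16 were not called. The median log2 difference of 0.28 was -0.01 with normexp and quantile normalisation. The lipocalin Lcn2, also known as NGAL, read 0.306, 0.520, 0.278 and 0.262 in the controls and 41.3, 74.6, 84.1 and 59.5 in APL. It rose by 7.58 ± 0.32 on the log2 scale (limma adjusted p = 1.21e-05), with no overlap. C3, the central complement protein and a relative of A2m, rose by 5.89 ± 1.27 (limma adjusted p = 0.0136), or by 3.83 with normexp and quantile normalisation. Its controls were widely spread, at 0.345, 0.0963, 0.0181 and 1.81, with 3 of the 4 well above background. The call of C3 was lost with replicate number as a block in the fit (limma adjusted p = 0.0505). Serpina10, the inhibitor of coagulation factor X, rose by 5.85 ± 0.999 (limma adjusted p = 0.00482) and was well above background on only 2 of the 4 control arrays; normexp with quantile normalisation gave 1.69. Pzp, another alpha-2-macroglobulin gene, went the opposite way from A2m: 2.81, 2.65, 2.52 and 2.79 in the controls against 0.0772, 0.0232, 0.0804 and 0.0375 in APL. Pzp fell by 5.80 ± 0.41 on the log2 scale (limma adjusted p = 6.92e-05), and it fell by 2.30 with normexp and quantile normalisation.

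Among 31 other positive acute phase genes tested, 13 were called higher (41.9%, beside 11.9% of all genes). A further 4 were called lower (12.9%, beside 11.5%) and 14 were not called. The median log2 difference was 1.53. The lists share genes: Lcn2, C3 and C4a, all called higher, are also counted among the relatives above, so the counts are not separate. Besides Lcn2, the secreted lectin gene Reg3g rose by 6.24 ± 0.48 (limma adjusted p = 1.10e-04), the complement protease gene Cfi by 6.05 ± 0.87 (adjusted p = 0.00222) and the metalloproteinase inhibitor gene Timp1 by 5.99 ± 0.34 (adjusted p = 2.87e-05). With normexp and quantile normalisation these differences were 2.52 for Reg3g, 1.45 for Cfi and 2.45 for Timp1, all still called. The count of higher genes was 8 on each slide alone, and 7 where only probes detected on all 8 arrays were tested.

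Negative acute phase genes, whose plasma proteins drop in inflammation, gave 0 called higher, 6 lower and 8 not called of 14 tested in limma's fit. The 6 lower are 42.9%, beside 11.5% of all genes, and 11.9% of all genes were called higher. At an unadjusted p under 0.05, 1 gene of the list was higher and 6 were lower, beside 7935 of all 21416 genes in either direction. Without scaling between arrays 2 genes of the list were called higher. The vitamin D carrier gene Gc fell by 5.81 ± 1.03 (limma adjusted p = 0.00573), the histidine-rich glycoprotein gene Hrg fell by 4.25 ± 0.29 (adjusted p = 6.47e-05) and the apolipoprotein gene Apoc3 fell by 3.34 ± 0.47 (adjusted p = 0.00183), or -2.08 with normexp and quantile normalisation. Igfals, a carrier subunit of insulin-like growth factors, was at -1.29 ± 0.36 (adjusted p = 0.0370). The calls of Gc (adjusted p = 0.0902), Hrg (0.679) and Igfals (0.684) were lost with normexp at the 75th percentile, where the list had 2 genes called lower, and Igfals turned to 0.40. The call of Igfals was also lost with normexp and quantile normalisation, without scaling between arrays, and with slide or replicate number as a block in the fit. It needed every control array, APL 3 and APL 4. The list's median log2 difference of -0.21 became 0.44 with normexp at the 75th percentile.

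**Figure D3:**
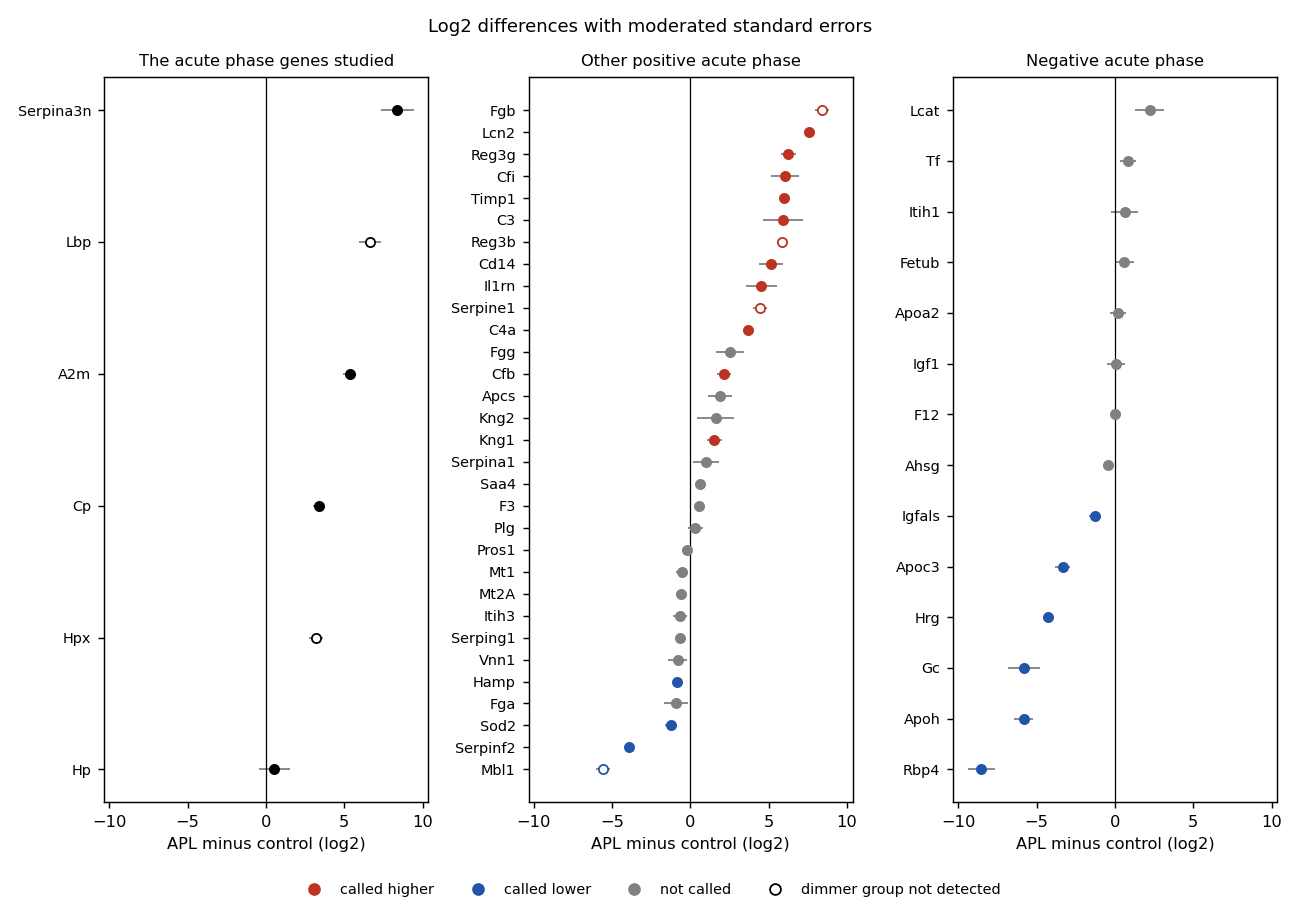
Log2 difference, APL minus control, with moderated standard errors (horizontal lines), for the 6 tested genes described here, 31 other positive and 14 negative acute phase genes. Black points were not tested because the contrast chose them, open points mark a dimmer group detected on no array; the other positive genes run from Fgb at the top to Mbl1 at the bottom, and no negative acute phase gene was called higher.

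Calls among the ligands and receptors upstream went in both directions. Il6 was well above background on none of the 8 arrays, and its receptor Il6r on 3 APL arrays and no control. Il6st, the shared gp130 chain, differed by 0.26 ± 0.61 (limma adjusted p = 0.789), and it was -0.030 with median scaling. Osmr, the oncostatin M receptor, differed by 2.30 ± 0.91 (limma adjusted p = 0.106). Of 11 tested gp130 ligands and receptors, 2 were called higher (18.2%, beside 11.9% of all genes) and 3 lower (27.3%, beside 11.5%). The other 6 were not called. Cntf, ciliary neurotrophic factor, rose by 4.33 ± 0.56 (limma adjusted p = 0.00127), or by 1.88 with normexp and quantile normalisation, while Ctf1, the cardiotrophin gene, fell by 2.24 ± 0.43 (adjusted p = 0.00791). The interleukin-11 receptor gene Il11ra1 was at -1.35 ± 0.28 (adjusted p = 0.0119) and Il11 itself at -0.66 ± 0.17 (adjusted p = 0.0271). The calls of Ctf1 (adjusted p = 0.0711), Il11ra1 (0.642) and Il11 (0.511) were lost with normexp at the 75th percentile, and that of Il11 also without any single array other than APL 4. Those of Il11ra1 and Il11 were also lost with replicate number as a block in the fit and without scaling between arrays, where Il11 was at -0.024.

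Downstream, 9 of 29 tested STAT3 and C/EBP pathway genes were called higher (31.0%, beside 11.9% of all genes). A further 3 were called lower (10.3%, beside 11.5%) and 17 were not called. The median log2 difference was 0.54. Stat3 read 0.870, 0.468, 1.20 and 0.718 in the controls and 1.85, 3.01, 2.94 and 2.84 in APL, and rose by 1.76 ± 0.33 (limma adjusted p = 0.00700). Its feedback inhibitor Socs3 read 0.274, 0.395, 0.268 and 0.213 against 0.436, 1.39, 1.22 and 1.36, and rose by 1.83 ± 0.41 (limma adjusted p = 0.0165). For both genes APL 1 stood below the other APL arrays, as it did for Serpina3n. Among the 6 tested members APL 1 was lowest for 2. It was also lowest in 36.3% of the 2548 genes called higher with a value on every APL array, so nothing is read from this. Cebpd, a C/EBP factor induced in inflammation, read 0.962, 0.655, 0.864 and 0.532 against 3.73, 7.88, 7.68 and 2.59 and rose by 2.74 ± 0.41 (limma adjusted p = 0.00267). Its highest APL arrays, APL 2 and APL 3, were also the highest for Serpina3n, while its lowest was APL 4. Cebpb differed by 0.54 ± 0.28 (limma adjusted p = 0.193). Myc rose by 3.32 ± 0.68 (adjusted p = 0.0108) and the NF-kB cofactor gene Bcl3 by 2.64 ± 0.51 (adjusted p = 0.00843). With normexp and quantile normalisation Myc was at 1.61 and Socs3 at 0.98. Hnf4a, a transcription factor of liver and proximal tubule, fell by 2.44 ± 0.32 (limma adjusted p = 0.00126). With 2 arrays a group, limma called 1 gene of the list higher on slide 1 alone and 0 on slide 2 alone. At an unadjusted p under 0.05, 8 were higher on slide 2, with no count over all genes to set beside it.

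**Figure D4:**
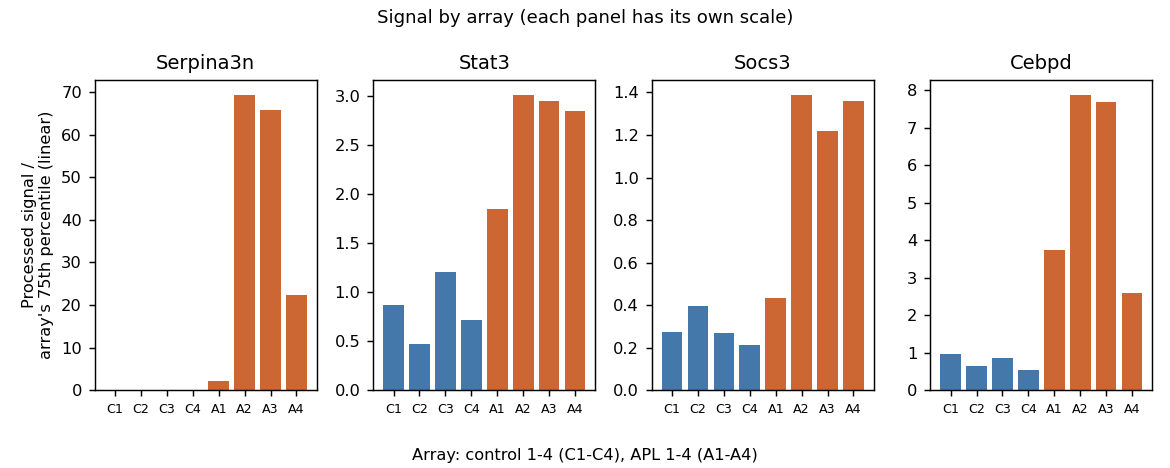
Relative signal on a linear axis from 0, each panel with its own scale, of Serpina3n, Stat3, Socs3 and Cebpd on control arrays C1 to C4 and APL arrays A1 to A4 (bars are single arrays). A1 is the lowest APL bar for Serpina3n, Stat3 and Socs3, and A4 is the lowest for Cebpd.

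Around Lbp, 5 of 20 tested genes of interleukin-1, TNF and lipopolysaccharide sensing were called higher and 0 lower in limma's fit, with a median log2 difference of 1.37. The higher genes are 25.0%, beside 11.9% of all genes, and 11.5% of all genes were called lower. At an unadjusted p under 0.05 the list's counts were 10 and 0, beside 7935 of all 21416 genes in either direction. The higher count was 3 without APL 2, without APL 3 or without APL 4 and 7 without control 3, 3 with median scaling, 11 without scaling and 1 on each slide alone. Cd14, which receives lipopolysaccharide from the Lbp protein, rose by 5.13 ± 0.78 (limma adjusted p = 0.00281), and by 2.06 with normexp and quantile normalisation. The receptor Tlr4 differed by 2.65 ± 1.03 (limma adjusted p = 0.101) and its partner Ly96 by 0.34 ± 0.51 (adjusted p = 0.660). The interleukin-1 antagonist gene Il1rn rose by 4.52 ± 1.001 (adjusted p = 0.0153) and Il1b by 2.28 ± 0.37 (adjusted p = 0.00391), or by 2.38 and 0.74 with normexp and quantile normalisation. Tnfrsf1a, at 1.84 ± 0.55 (adjusted p = 0.0449), lost its call in 7 of the 8 fits that left out 1 array and kept it without control 3.

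Around Hp, Hpx and Cp, 1 of 22 tested genes of haem and iron handling was called higher, Lcn2 (4.55%, beside 11.9% of all genes). A further 9 were called lower (40.9%, beside 11.5%). Blvra, biliverdin reductase, fell by 3.79 ± 0.28 (limma adjusted p = 8.83e-05), Bdh2, which makes a siderophore, fell by 3.54 ± 0.30 (adjusted p = 1.64e-04), and the transferrin receptor gene Tfrc fell by 2.35 ± 0.36 (adjusted p = 0.00278). Normexp gave -1.95 for Bdh2 with quantile normalisation and -1.49 for Tfrc at the 75th percentile. The median of the list was -0.58 and became 0.054 without scaling between arrays. The direct partners of the 3 proteins were not called or not tested. Cd163, the scavenger receptor for haptoglobin with haemoglobin, was well above background on 3 APL arrays and no control, too few for the fit. The haem-hemopexin receptor gene Lrp1 differed by 0.84 ± 0.65 (limma adjusted p = 0.386), the ferroportin gene Slc40a1 by 0.64 ± 0.32 (adjusted p = 0.181) and the haem oxygenase gene Hmox1 by 0.21 ± 0.31 (adjusted p = 0.657). Of 8 globin and erythroid genes tested, 3 were called lower (37.5%, beside 11.5% of all genes) and 5 were not called. The summed signal of 10 globin and erythroid genes with a probe was 21.4 to 48.8 in the controls and 2.03 to 8.60 in APL, with Hbe1 and Epb42 detected on no array, and the part of blood left in the tissue was not tested. The globin gene Hba-a1 fell by 3.87 ± 0.57 (limma adjusted p = 0.00235).

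Around the inhibitors Serpina3n and A2m, 7 of 17 tested proteases and protease targets were called higher (41.2%, beside 11.9% of all genes). A further 3 were called lower (17.6%, beside 11.5%). The metalloproteinase genes Adamts1 and Mmp14 rose by 4.77 ± 0.43 (limma adjusted p = 2.15e-04) and 4.56 ± 0.83 (adjusted p = 0.00669), and tissue plasminogen activator, Plat, rose by 4.30 ± 0.43 (adjusted p = 4.01e-04). Prothrombin, F2, fell by 6.87 ± 0.58 (limma adjusted p = 1.64e-04). With normexp and quantile normalisation Mmp14 was at 1.45 and F2 at -2.90.

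Markers of other cell types were read on the same arrays. Of 22 hepatocyte markers with a probe, 8 were detected on no array, among them albumin, Alb, and the summed signal of all 22 was 9.44 to 12.3 in the controls and 0.785 to 1.63 in APL. The hepatocyte sum was lower on every APL array than on any control. Of 15 macrophage markers tested, 6 were called higher (40.0%, beside 11.9% of all genes) and 1 lower (6.67%, beside 11.5%). Cd68 rose by 2.62 ± 0.36 (limma adjusted p = 0.00165), or by 1.04 with normexp and quantile normalisation. The macrophage sum over 18 genes was 69.1 to 83.9 in the controls and 72.9 to 78.1 in APL. Most of it came from the probe of Cx3cr1, the marker called lower, which is named here after its values were seen. Cx3cr1 alone read 60.5 to 68.3 in the controls and 37.1 to 50.4 in APL, and its call was lost whichever single array was left out. The other 17 markers summed to 8.63 to 15.6 in the controls and 26.8 to 35.8 in APL, and their part in the differences of the acute phase genes was not tested. Of 8 neutrophil markers tested, 2 were called higher (25.0%, beside 11.9% of all genes) and 0 lower (beside 11.5%) in limma's fit. At an unadjusted p under 0.05 these counts were 2 and 1, beside 7935 of all 21416 genes in either direction. The summed signal of 14 was 0.314 to 0.506 in the controls and 0.834 to 1.83 in APL, with Ctsg and Mmp8 well above background on no array. S100a8, the brightest, was at most 0.0101 in the controls and 0.249 to 0.855 in APL, and the other 13 summed to 0.309 to 0.501 and 0.480 to 0.995, groups that overlap. Their part was not tested either. Endothelial markers fell, with 7 of 9 tested called lower (77.8%, beside 11.5% of all genes) and summed signals of 13.2 to 18.3 against 1.17 to 1.61. Of 8 fibroblast markers tested, 3 were called higher (37.5%, beside 11.9% of all genes) and 1 lower (12.5%, beside 11.5%). Among the higher was Col1a1 (2.12 ± 0.38, limma adjusted p = 0.00615). Summed fibroblast signals were 14.3 to 17.8 in the controls and 30.2 to 92.8 in APL.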

How the data were processed

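Total RNA from 8 rat kidney samples was labelled with Cy3 and read on Agilent arrays of design 028282 with Feature Extraction 10.5.1.1, per the file headers, which name build rn4. The deposited scanner files hold linear intensity values for each spot, and the processed signal used here is the intensity after background removal, per the file headers. A deposited table of the authors' log2 values, close to the log2 relative signal centred on each probe's median, was an alternative; its scale, centring and direction are known only from that comparison.

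Non-uniform spots among the 42877 were dropped, and replicate spots of a probe were averaged. Signals were divided by the array's 75th percentile, floored at 0.005 and put on the log2 scale. Probes well above background on at least 4 of 8 arrays were kept (24339), and a gene took its kept probe with the highest mean. Symbols came from RefSeq by accession, which named 18643 of 30367 probes. The test was limma 3.58.1 under R 4.3.3 with Benjamini-Hochberg adjustment over 21416 genes, and the fit was tested on simulated data. Precision is limited by the number of arrays.

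The members and the gene lists were chosen with earlier results of these data known. Named are all members, up to 4 called genes of each list with the largest difference, no overlap and the dimmer group detected on at least 2 arrays, direct partners of members, and the 2 most similar genes for each, of which 1 is not reported here. Replicate numbers were not taken to pair the samples, which is an assumption (correlations of deviations from -0.015 to 0.048). The alternatives are described in the closing section.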

Additional observations from a re-analysis of the deposited data

Results flagged for a closer look

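In 13 of 160 groups of 4 arrays checked, 1 array stood apart from the rest, with a gap to its nearest neighbour that took a larger share of the group's log2 range than Dixon's critical value; chance flags about 1 in 20 groups. The values of these arrays are given with that share of the range.

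Some flags rest on arrays tied at the floor of 0.005. Control 4 stood apart for Hpx (0.0118, a share of 1), and without the floor its share was 0.884, still over that value, though the signal was not well above background. APL 2 for Orm1 (0.00966), APL 1 for Il6 (0.0161) and control 1 for Cd163 (0.00557) also had a share of 1 with the floor. Without it these shares were 0.538, 0.7999 and 0.751, below the critical value, so these arrays did not stand apart.

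APL 1 lay below the other APL arrays for Stat3 (1.85 against 2.84 to 3.01, share 0.878) and Socs3 (0.436 against 1.22 to 1.39, share 0.886), and above them for the liver lectin gene Asgr2 (0.0389 against 0.0269 to 0.0287, share 0.8294). APL 3 was higher for the anion transporter gene Slc22a6 (1.15 against 0.447 to 0.478, share 0.929) and lower for Slc40a1 (1.23 against 2.27 to 2.58, share 0.83). APL 2 was higher for F2 (0.0936 against 0.0147 to 0.0189, share 0.864). Control 3 was higher for Reg3g (0.0374 against 0.0256 to 0.0263, share 0.93) and Hba-a1 (16.6 against 9.9 to 10.4, share 0.905) and lower for F2 (2.22 against 3.32 to 3.34, share 0.985).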

How the results depend on the processing

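The results were recomputed under 24 alternatives, 8 of which left out 1 array; the fits that also dropped population outlier spots or kept non-uniform spots were chosen after seeing the data. Of 5026 genes called, normexp at the 75th percentile left 2026 (1052 higher, 974 lower), slide 1 alone 1022 (509 and 513) and slide 2 alone 658 (379 and 279). Leaving out 1 array gave 3383 to 4189 called, 1606 to 2204 higher (1623 without APL 2 and 1606 without APL 4) and 1777 to 2019 lower. The share of called genes that were higher was 50.8%, 31.1% with median scaling (3849 lower) and 83.7% without scaling (5887 higher, 1143 lower). The median of all genes moved to -0.31, 0.60 and, with normexp at the 75th percentile, 0.36. The cause of these shifts was not tested.

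Of the 7 acute phase genes, 5 were at least 2-fold higher with separate groups without each array in turn. The count was 4 with normexp under either scaling, with the authors' log2 values and with non-uniform spots kept. It was 3 where every probe had to be detected on all 8 arrays, since 3 were then tested. Other positive acute phase genes called higher numbered 7 under that filter, 8 on each slide, and 12 to 15 without single arrays. Those called lower numbered 1 with normexp at the 75th percentile, 2 without scaling, 2 and 1 on slides 1 and 2, and 2 to 4 without single arrays, with 2 without control 2 and 2 without APL 4. Negative acute phase genes called higher numbered 2 without scaling and 1 with slide as a block. Those called lower numbered 2 with normexp at the 75th percentile, 1 with detection on all 8 arrays, 2 on slide 2, and 5 to 6 without single arrays. STAT3 and C/EBP genes called higher numbered 1 and 0 on slides 1 and 2 and 7 to 9 without single arrays, and those called lower 5 with median scaling, 1 on slide 2 and 3 to 4 without single arrays. Haem and iron genes called higher numbered 2 with a floor of 0.02, 2 with normexp under either scaling, 2 with no detection filter, 5 without scaling, and 1 to 2 without single arrays, with 2 without control 1 or control 4. Those called lower numbered 2 on each slide and 7 to 9 without single arrays.

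The haem and iron median turned to 0.054 without scaling, and Igfals to 0.40 with normexp at the 75th percentile. Il6st turned to -0.030 with median scaling and -1.25 on slide 2, and ranged from -0.12 to 0.73 without single arrays, below 0 without control 1 or control 2. Hmox1 turned to -0.075 with median scaling and ranged from -0.0087 (without APL 3) to 0.40, and Ly96 from -0.031 (without APL 3) to 0.72. Of 62 called genes named by the rule outside the members, 46 were called in every setting over all 8 arrays, 52 without each array in turn, and 38 moved by over 1.5 times with normexp. Dim signals, near the lowest signal well above background, limit Hpx, Lbp, Hp and Orm1.

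Replicate numbers were not taken to pair the samples: deviations of same-numbered samples correlated at -0.015 to 0.048, and 2 of 4 controls and 3 of 4 APL arrays correlated best with their own number. With the replicate block 3258 genes were called, 1642 higher and 1616 lower, and 2 other positive acute phase genes were called lower.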
